A study of Mus musculus with 58 samples.

Results

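A segment of 158 kb on chromosome 2 (chr2:77707001-77865000, mm9), in which the splicing gene Cwc22 was placed, carried far more H3K27ac signal in Setd2-/- than in Setd2+/- full-grown mouse oocytes. Acetylation of histone H3 at lysine 27 (H3K27ac) is a mark of active promoters and enhancers. The segment was chosen by its measured difference between these pools, so the difference is described here and not tested. It is 1 region, examined with flanks of 107 kb and 105 kb (the whole region is chr2:77600001-77970000) and set beside 15192 autosomal stretches of the same length that held reads. That the segment is the reference copy of the R2d unit with Cwc22 comes from the rule by which it was chosen, since no annotation of mm9 was used here.

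The series used STAR ChIP-seq, an immunoprecipitation protocol suited to few cells, on oocytes and embryos of the mouse. Setd2 encodes the methyltransferase that places H3K36me3. The controls were full-grown oocytes labelled Setd2+/-, and the knockout oocytes were labelled Setd2-/-, in a design described as a maternal knockout. The labels give mice of 8 weeks in their superovulation protocol, and their text on the germinal vesicle stage is garbled. Not given in the sources used here were the strain, the number of animals and the driver of the deletion. Each genotype had 2 samples, which share 1 deposited track, so each value below is the authors' pooled value, and neither an SD nor a test was possible. Oocyte marker genes could not be located in mm9, and the cell type was therefore not checked.

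Cwc22 encodes a component of the spliceosome that recruits the helicase EIF4A3 to pre-mRNA, a step in building the exon junction complex. In house mice the gene sits in a duplicated block of sequence named R2d. The reference genome holds the ancestral locus, R2d1, whereas many copies can stand at a further locus, R2d2, which the reference lacks. R2d2 differs in copy number between wild and laboratory mice and is known for meiotic drive in females, in which it is passed to more than its share of offspring. Reads from copies that the reference lacks can align to R2d1, where the sequence is alike. The deposited tracks hold immunoprecipitated DNA, and no input was used here, so more DNA copies and more acetylation per copy cannot be told apart in any value that follows.

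The sequence before the start of Cwc22 is shown because Cwc22 is the gene that the rule placed in the segment. Whether this sequence regulates the gene was not tested. In RefSeq's promoter table, which is of another build (GRCm38.p6), the 250 bases before the start of the gene are chr2:77946357-77946606 on the minus strand. They are printed 5′ to 3′ in the direction of transcription. Capitals mark the letters ACTACA, or TGTAGT where they lie on the opposite strand, which begin the consensus element of the zinc finger protein ZNF143.

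Cwc22: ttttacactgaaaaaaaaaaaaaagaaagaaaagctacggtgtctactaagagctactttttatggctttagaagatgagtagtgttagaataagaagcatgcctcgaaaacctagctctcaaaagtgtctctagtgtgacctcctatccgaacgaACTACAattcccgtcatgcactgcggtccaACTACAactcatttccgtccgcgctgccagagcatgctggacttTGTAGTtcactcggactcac

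The motif was looked for after the sequence had been read. It matched 3 times on both strands together, at positions 157, 187 and 231 counted from the 5′ end. At least 1 match was present in 8.92% of 32851 mouse promoters of that length, and 3 or more in 0.0700%. The longer form ACTACANNTCC matched 1 time in Cwc22 and at least 1 time in 1.82% of promoters. With a GC content of 42.8%, the sequence was poorer in G and C than the median promoter at 52.4%, while it held 10 CpG against a median of 6. A match of letters is a description and not evidence of binding. Coordinates of the 2 builds cannot be compared, and this start was not placed on the tracks. By gene order in the same build, Zfp385b and Gm14461 are the nearest protein-coding genes before and after Cwc22.

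From the step between deposited values, 30694806 reads were recovered for control oocytes and 29367645 for knockout oocytes. The values are in RPKM, read density per length scaled to the size of the library, in bins of 100 bp. Over autosomes the control mean was 0.374 RPKM and the knockout mean 0.387 RPKM. Intervals below are 95% exact binomial intervals unless named otherwise. They allow for counting error alone and are too narrow, because reads were more uneven than counting error gives. Variance over mean was taken within groups of 10 neighbouring bins of the segment outside long empty runs. It was 1.77 in control and 10.2 in knockout, where independent counts of 1 shared mean give 1. Clustering of reads was not separated from differences of level between neighbouring bins.

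In control oocytes the level of the segment was in the lower part of the genome's range. It held 1417 reads, with a mean of 0.292 RPKM, and 32.3% of the autosomal stretches of the same length had less. In knockout oocytes it held 27722 reads, with a mean of 5.98 RPKM, and only 2 of the stretches had more. The knockout over control ratio was 20.5 (19.4 to 21.6). The flanks differed little between pools. The left flank went from 0.0831 RPKM in control to 0.104 in knockout, a ratio of 1.25 (1.06 to 1.47), and the right flank 0.135 and 0.133 RPKM, a ratio of 0.983 (0.857 to 1.13). Inside the knockout track, which needs no comparison of libraries, the segment stood 50.5 times above its flanks and 14.8 times above the rest of chromosome 2. Inside the control track it stood 2.68 times above its flanks, 1.70 times above flanks of 50 kb and at 0.753 of the rest of chromosome 2, so whether control was high there turned with the reference chosen. Its share of the control library was 0.00462% (Wilson interval 0.00438 to 0.00486). Its share of the knockout library was 0.0944% (0.0933 to 0.0955), which was 1.29% of all knockout reads on chromosome 2. Counting at most 10 reads per bin lowered the ratio to 7.89. That limit lies under the median of 13 reads per knockout bin of the segment, so it removes signal by construction.

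**Figure D1:**
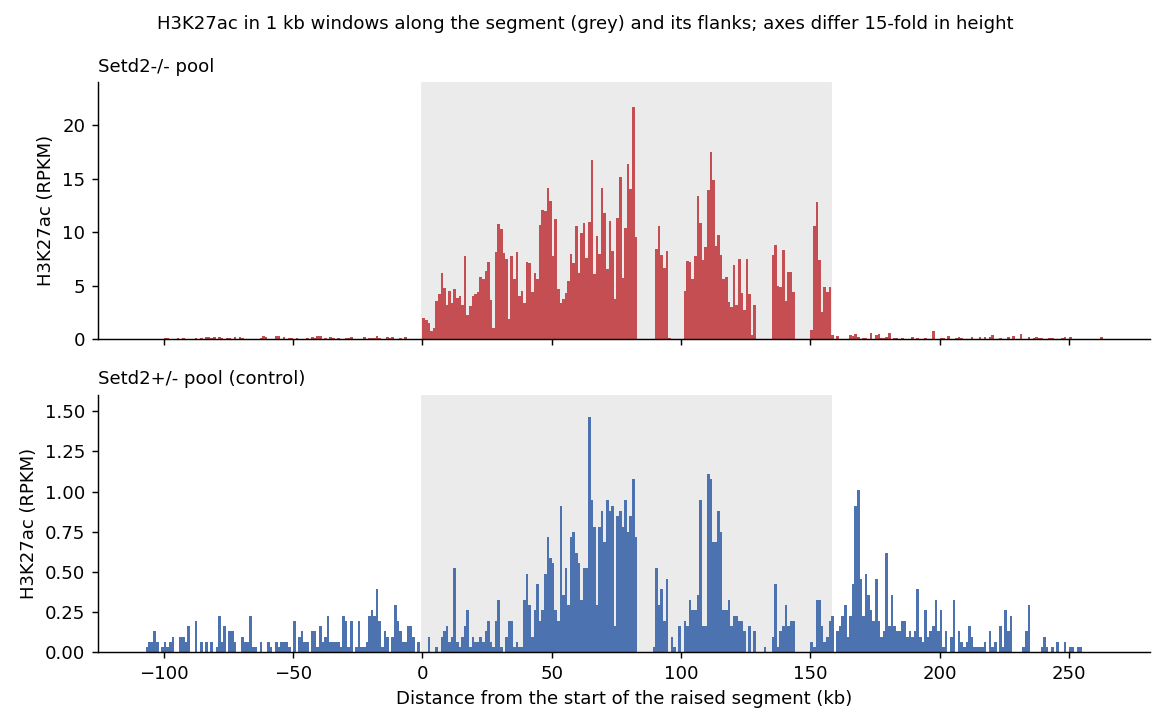
H3K27ac in RPKM (vertical axes, which differ between panels) in 1 kb windows against the distance in kb from the start of the segment, for the Setd2-/- pool above and the Setd2+/- pool below, with the segment shaded. The knockout windows reach 21.7 RPKM inside the segment and at most 0.817 RPKM in the flanks, while the control windows reach 1.47 RPKM inside and 1.01 RPKM in the right flank.

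The segment had an inner structure that differed between pools. Its division into 3 zones was made after the profiles were seen. In control, H3K27ac stood in the middle 85 kb (chr2:77745001-77830000), at 0.455 RPKM, and both ends were as poor as the flanks. The first 38 kb had 0.101 RPKM, or 0.929 of the flank mean, and the last 35 kb had 0.103 RPKM, or 0.948 of it. In knockout, all 3 zones were high, at 4.77 RPKM in the first, 7.49 RPKM in the middle and 3.62 RPKM in the last. The knockout over control ratio was lowest where control, its divisor, was richest, an order that the choice of zones partly builds in. The ratio was 47.2 (39.3 to 57.1) in the first zone, 16.4 (15.5 to 17.4) in the middle and 35.0 (29.0 to 42.6) in the last. Relative to the knockout flanks the zones stood at 40.3, 63.3 and 30.6 times.

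Windows of 5 kb followed that order only in part. The poorest control window with knockout signal at the left end, chr2:77710001-77715000, had 4 control reads and 465 knockout reads, or 0.0261 and 3.17 RPKM. The window with most reads in both pools, chr2:77785001-77790000, had 133 and 2117 reads, or 0.867 and 14.4 RPKM, a ratio of 16.6, above the 12.3 of chr2:77775001-77780000 with its 128 control reads. The window chr2:77760001-77765000 had the smallest ratio of the 5 kb windows with reads inside the segment, 8.91, with 86 and 733 reads. Next to it, chr2:77755001-77760000 had 71 and 1491 reads, a ratio of 22.0. Neighbouring windows of like control level thus differed more than 2-fold in knockout. The flanks also held single windows that differed between pools, in both directions. Of 42 flank windows, the counting interval of the ratio lay above 1 in 9 and below 1 in 3. The share of such windows over the autosomes was not computed and the intervals are too narrow, so nothing is read from these counts. The windows counted ranged from chr2:77875001-77880000, with 78 control and 17 knockout reads, to chr2:77935001-77940000, with 1 and 26 reads.

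Both ends showed a step in knockout that control lacked. Within 10 kb of each edge, the single step that best divided the knockout reads lay after base 77707700 at the left and after base 77865200 at the right. The segment had been chosen as raised in these pools, so a knockout step near its edges was likely in advance. The mean went from 0.0955 to 3.10 RPKM across the left step and from 4.81 to 0.188 RPKM across the right. At the right, the last bins with reads held 12, 11, 7 and 6 knockout reads, and no read followed up to base 77866700. At the left the rise was less abrupt. The first bins of the segment held 1, 4, 0, 1, 0, 0 and 2 reads, and the following ones held 5, 28, 17, 23 and 9. Of the 50 bins inside the left edge, 21 had no knockout read, among them a run of 1.2 kb (chr2:77709501-77710700), against 3 of 50 inside the right edge. In control, the 5 kb before and after the left edge had 10 and 3 reads, and the 5 kb before and after the right edge had 26 and 23 reads, against 8 and 209 and then 713 and 27 reads in knockout. The best step of the control track lay elsewhere, 33 bins before the left edge with a fall and 83 bins past the right edge with a rise, from 0.148 to 0.748 RPKM.

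**Figure D2:**
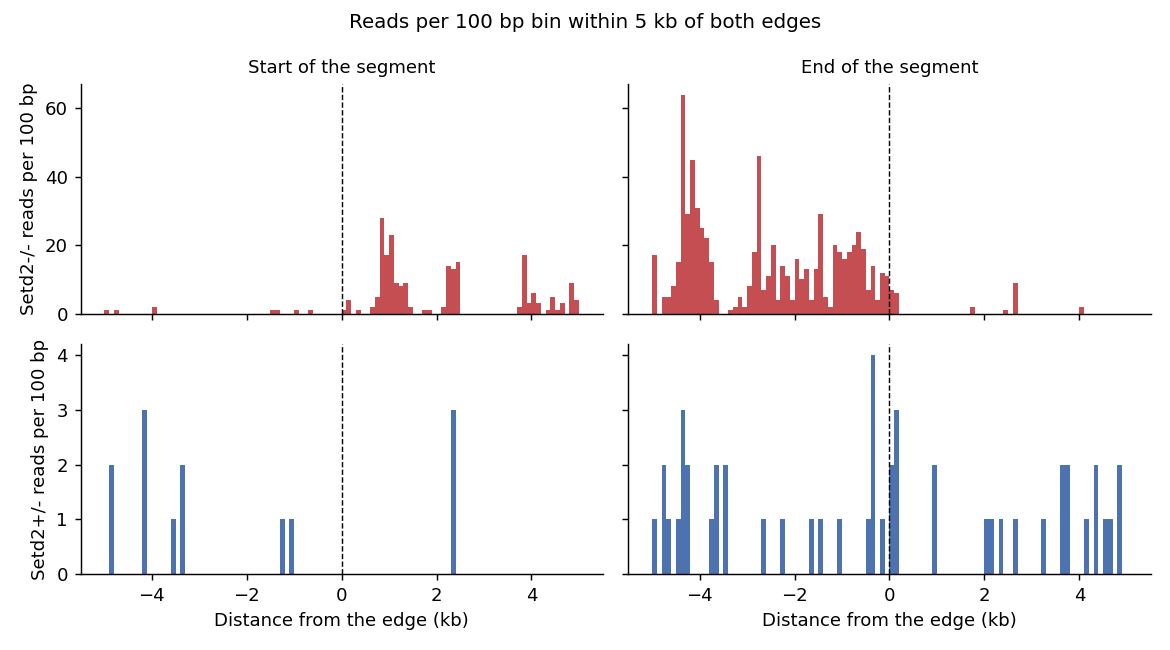
Reads per 100 bp bin (vertical axes, which differ between rows) against the distance in kb from each edge of the segment (dashed line), in the Setd2-/- pool above and the Setd2+/- pool below. Knockout reads are denser on the inner side of both edges, with gaps at the left, and control reads show no rise there, with 713 and 27 knockout reads against 26 and 23 control reads in the 5 kb on either side of the right edge.

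Most 1 kb windows of the segment were raised. Ratios of windows are given as the log2 of RPKM + 0.1, which makes changes of poor windows look smaller. Of 158 windows, 134 were at least 2-fold higher in knockout and 109 were at least 10-fold higher, 17 were empty in both pools, and 1 was at least 2-fold lower. Over all 2415276 autosomal windows of 1 kb, 16.6% were at least 2-fold higher and 0.0801% at least 10-fold higher. As the segment was chosen on this contrast, nothing is read from that difference. The median log2 ratio was 3.96 in the segment, from -1.39 to 6.35, and 0.00 over the autosomes. In the 212 flank windows it was 0.00, with 39 at least 2-fold higher, 25 at least 2-fold lower and none 10-fold higher. Knockout reads stood where control had none in 11 of the 158 windows of the segment and in 31 of the 212 of the flanks. The matching share over the autosomes was not computed, so nothing is read from these counts. The same holds for the counts of windows at least 2-fold lower and of windows empty in both pools.

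Windows that were not raised were empty or nearly empty in both pools. The 24 windows under 2-fold lay in 4 stretches, chr2:77790001-77797000, chr2:77803001-77808000, chr2:77836001-77842000 and chr2:77851001-77857000. They held 1, 9, 1 and 0 control reads and 1, 4, 0 and 1 knockout reads, and 68 of 70, 42 of 50, 59 of 60 and 59 of 60 of their bins were empty in both pools. Across the segment, 13 runs of at least 500 bp were empty in both pools and covered 27.6 kb, or 17.5% of it. The longest, chr2:77789901-77796700, spanned 6.8 kb. Whether such runs are gaps, repeats or missing sequence was not tested. The second of the 4 stretches was not as empty as the others, with 1 kb windows of 3, 1, 0, 5 and 0 control reads and 2, 0, 2, 0 and 0 knockout reads. In it, the window chr2:77806001-77807000 had 5 control reads and no knockout read, and the upper bound of its ratio, 1.14, does not separate it from equality. Of 343 bins without a knockout read in the segment, 324 also lacked control reads, and the other 19 held 37 control reads in all. Of bins without a knockout read, 1468 of 1803 in the flanks and 10473261 of 16411737 over the autosomes also lacked control reads.

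Over all bins of the segment, knockout reads were spread widely. Of its 1580 bins of 100 bp, 343 had no knockout read and 982 had no control read, against 1803 and 1717 of the 2120 flank bins. These were 21.7% and 62.2% of the segment, where the autosomes had 66.4% and 56.0%. The knockout median was 13 reads per bin and the control median 0. The richest bin held 134 of the 27722 knockout reads, so no single bin of 100 bp held most of the signal.

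**Figure D3:**
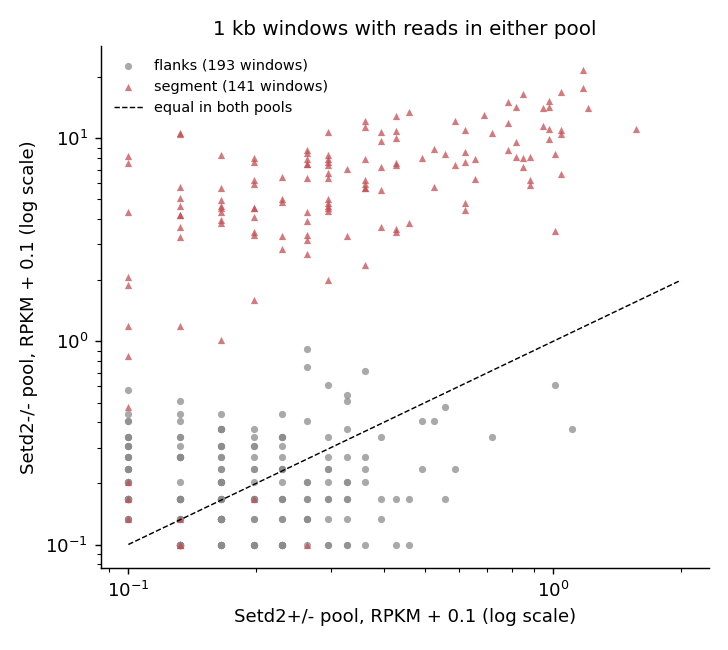
Each point is a 1 kb window with reads in either pool, at its Setd2+/- level (horizontal) and Setd2-/- level (vertical), both as RPKM + 0.1 on log scales, with triangles for the 141 windows of the segment and circles for the 193 of the flanks. Most triangles lie above 1 RPKM in knockout over the whole range of control, and the circles lie around the line of equal values.

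The pools shared part of their pattern inside the segment. Over the 141 windows of 1 kb with reads, Pearson's r of log2(RPKM + 0.1) was 0.58 and Spearman's rho of RPKM was 0.659, as a description across neighbouring windows that share libraries, depth and mappability. Over the 193 windows of the flanks, where both pools were sparse, r was 0.09 and rho 0.0166. The difference between segment and flanks varied with the window, as r was 0.44 and -0.15 in windows of 500 bp and 0.75 and 0.45 in windows of 5 kb. Of the 20 richest windows of each pool in the segment, 10 were shared. The richest knockout window, chr2:77788001-77789000, had 636 knockout and 33 control reads, or 21.7 and 1.08 RPKM and shared rank 3 in control with the second. The second, chr2:77818001-77819000, had 514 and 33 reads, and chr2:77772001-77773000 had 491 and 29. The richest control window, chr2:77771001-77772000, had 45 control reads, 1.47 RPKM, but ranked only 20 in knockout, with 322 reads and a ratio of 7.48 (5.46 to 10.5). For the richest knockout window the ratio was 20.1 (14.2 to 29.5), and these intervals make no allowance for the choice of extremes.

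Bins without any control read were also high in knockout. In the segment, 982 bins had no control read and on average 12.6 knockout reads, although 33.0% of them had no knockout read either. The 63 bins with 5 or more control reads had 31.6 knockout reads on average. Classes between, with 1 to 4 control reads, had 21.8, 25.3, 30.0 and 30.2 knockout reads. Over the autosomes the knockout mean rose from 0.719 to 2.21 reads between the same extreme classes, and in the flanks it was 0.325 reads in 1717 bins without control reads. The knockout mean of the segment was above that of the autosomes in each control class. Its choice on the difference between pools made this likely in advance, so nothing further is read from it.

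**Figure D4:**
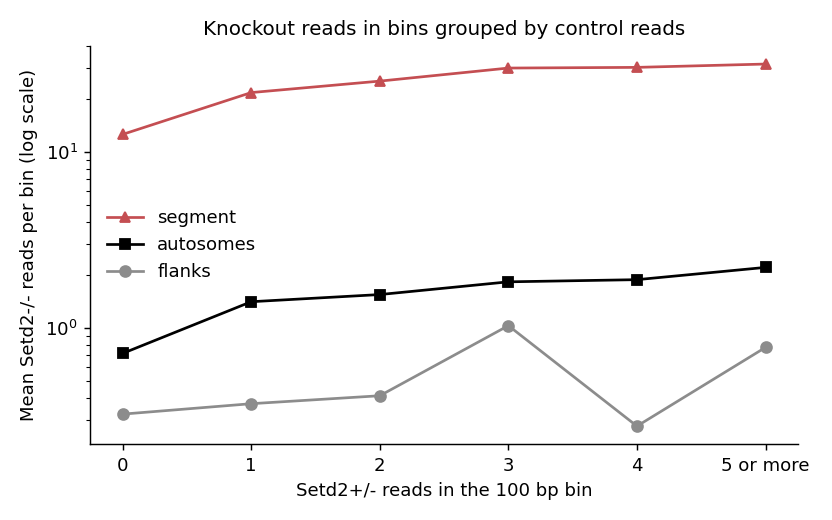
Mean Setd2-/- reads per 100 bp bin (vertical, log scale) in bins grouped by their number of Setd2+/- reads (horizontal), for all bins of the segment, the autosomes and the flanks. The segment runs from 12.6 to 31.6 reads, the autosomes from 0.719 to 2.21, and the flanks, whose richer classes hold few bins, stay near or under 1 read.

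The segment led the stretches it was compared with. Among 15192 autosomal stretches of 158 kb, the segment had the highest log2 ratio, 3.95, where 1% lay above 1.15 and 1% below -1.30. The segment was chosen on this contrast, so its rank is a description and not a test. In addition, 1 stretch was shifted to match the segment exactly, whereas the others were not fitted to raised signal. The second was on chromosome 2 at 98405001 to 98563000, with a log2 ratio of 3.20, and the next was on chromosome 9 at 2999901 to 3157900, with 2.63. The 2 stretches with more knockout signal were that of chromosome 2 at 98405001, at 7.68 RPKM, and chromosome 11 at 3000301 to 3158300, at 17.1 RPKM, which was also the richest in control, at 5.42 RPKM. Whether these other stretches hold repeated sequence was not tested. In windows of 5 kb, 40 of 527783 on the autosomes and X (0.00758%) were at least 10-fold higher in knockout on the RPKM + 0.1 scale, and 27 of these lay in the segment. Adjacent windows formed 5 runs there that covered 135 kb in all, whereas each of the other 13 runs was a single window of 5 kb. The runs in the segment were separated by windows with long empty runs or by the window with a ratio of 8.91.

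**Figure D5:**
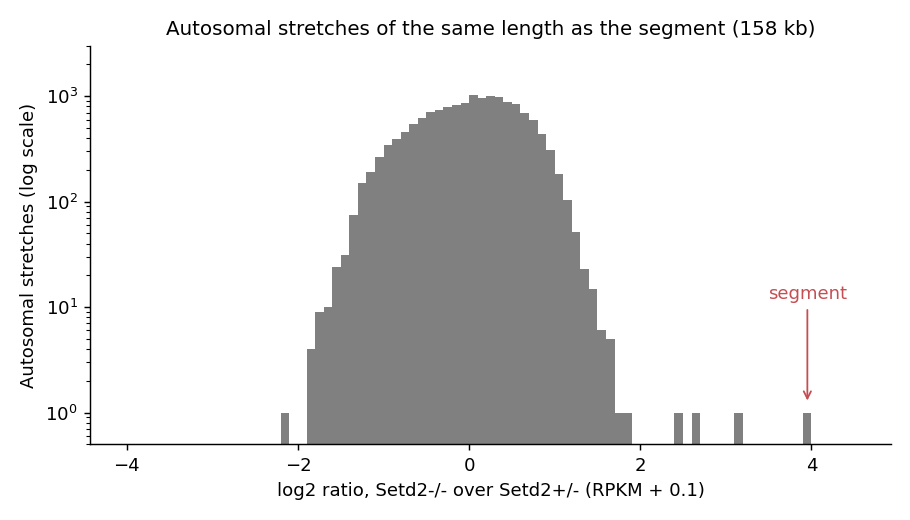
Number of autosomal stretches of 158 kb (vertical, log scale) by their log2 ratio of Setd2-/- over Setd2+/- (RPKM + 0.1, horizontal, classes of 0.1). The segment, chosen on this contrast and marked by an arrow at 3.95, lies apart from the other stretches, the nearest of which has 3.20.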

How the data were processed

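Full-grown oocytes of 2 genotypes, with 2 samples each, were profiled for H3K27ac by STAR ChIP-seq. The authors deposited 1 track per genotype in RPKM over bins of 100 bp with empty bins left out, a unit inferred from the sums and steps of the values. Per the submitters' processing notes, the build is mm9 and Bowtie2 2.2.2 was used. How duplicates, multiply aligned reads and read extension were handled, each of which could change values in duplicated sequence, is not given in the sources used here. All values (100% within 0.005 RPKM) were whole multiples of 1 read, worth 0.326 RPKM in control and 0.341 RPKM in knockout, from which reads were recovered. Means counted empty bins as 0. Log ratios used a pseudocount of 0.1 RPKM. Edges were placed by the single step with the highest Poisson likelihood. Named windows were the 3 richest and 3 poorest 1 kb windows in knockout, the 3 richest in control and those at the edges. The 3 poorest with any read had 0 knockout reads and 1, 5 and 1 control reads.

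The segment and these rules were chosen with earlier results of these data known. Features of Cwc22, genes of the exon junction complex and marker genes were not analysed here, since locating them takes mm9 gene coordinates. The code was tested on simulated data. Alternatives covered scaling, pseudocounts, window sizes, trimmed edges, other flanks, other thresholds for raised windows and a limit of 10 reads per bin. Reads were handled in NumPy 2.4.6 and pandas 2.3.3 under Python 3.11.15, intervals came from SciPy 1.17.1, and plots from matplotlib 3.10.9.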

Additional observations from a re-analysis of the deposited data

How the results depend on the processing

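No paired analysis was possible because each track pools both samples of a genotype, and for the same reason leaving out a sample was not run. The knockout over control ratio of the segment, 20.5, stayed inside its counting interval with trimmed edges and with scaling to the median autosomal window. Leaving out bins or runs empty in both tracks cannot change it by construction. It was 28.8 by medians of 1 kb windows, 7.89 with at most 10 reads per bin, 21.7 without the richest 1% of bins and 18.8 relative to the flanks. The segment over its flanks in knockout, 50.5, was 42.4 with flanks of 50 kb, 14.8 against the rest of chromosome 2 and 19.5 with at most 10 reads per bin. In control, 2.68 became 1.70 with flanks of 50 kb and turned to 0.753 against the rest of chromosome 2, whose mean is above that of the flanks. The 134 windows raised 2-fold numbered 131 to 136 under 5 alternatives. Pearson's r of 0.58 along the segment was 0.44 in windows of 500 bp, 0.75 in windows of 5 kb, 0.60 with a pseudocount of 0.5 and 0.61 without windows touching empty runs, the last chosen after seeing the data and removing mostly windows poor in knockout; the cause was not tested. The left step moved by 1 bin, to base 77707600, with at most 10 reads per bin, and the right step stayed. Depth limits the control side: its 1 kb windows in the segment had a median of 6 reads.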
